A study of Mus musculus with 4 samples.

Results

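The DNA replication machinery was followed here as 42 genes, chosen by symbol from the 49585 genes of the deposited FPKM table, by a rule that uses no FPKM value, though with earlier results of these data known. They cover origin recognition and licensing, the replicative helicase, its activation, the replicative polymerases, the sliding clamp and its loader, single-strand DNA binding, Okazaki fragment processing and fork protection. FPKM counts sequenced fragments per kilobase of gene and scaled to the total fragments of the library, so levels of different genes within a library can be set side by side. All 42 reached an FPKM of 1 somewhere and so were among the 12669 genes tested.

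The cells were 4T1, a murine triple-negative breast cancer line, as clones that each grew from a single cell. Clone 4T1-HM was selected for a high and clone 4T1-LM for a low metastatic capacity, so each capacity was represented by 1 clone. Cells of each clone were cultured for 48 h with 50 uM deferasirox (DFX), an iron chelator dissolved in DMSO, or with DMSO as control. This gave 4 bulk RNA-seq libraries, named HM_Ctrl, HM_DFX, LM_Ctrl and LM_DFX, with 1 library per condition. The difference between any pair of libraries therefore has no replicate check, and no p-value is given. The study sequenced these cells to ask why the clones differ in their tolerance of a changed iron supply.

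A cell copies its genome once per cycle. In G1, the origin recognition complex (ORC) with CDC6 and CDT1 loads the MCM2-7 ring onto DNA, a step called licensing, and geminin (Gmnn) blocks CDT1 outside G1. In S phase the CDC7-DBF4 kinase and cyclin-dependent kinases turn the ring into an active helicase with CDC45 and the GINS complex. DNA polymerase alpha-primase then lays down primers, polymerase epsilon and polymerase delta extend the leading and the lagging strand on the PCNA clamp, and FEN1, DNA2 and LIG1 finish the Okazaki fragments. Many of these genes are transcribed under E2F transcription factors as cells enter the cycle. Iron enters this pathway through ribonucleotide reductase, which makes deoxynucleotides, and through iron-sulfur clusters in several replication enzymes.

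Promoter sequence was at hand for 33 of the 42 genes in a RefSeq table on GRCm38.p6, with windows from 250 bases upstream to 50 bases downstream of each start site. No entry was matched for Gins1, Gins2, Gins4, Mcm4, Pole, Tipin, Prim2, Rfc2 and Gmnn. The E2F words TTTCCCGC, TTTCGCGC, TTTGCCGC and TTTGGCGC, searched on both strands, occurred in windows of 13 of the 33 genes (39.4%), against 704 of all 27025 genes of the table (2.60%). These 13 genes were Mcm3, Mcm5, Mcm6, Mcm7, Orc1, Rfc3, Lig1, Pold1, Gins3, Cdt1, Cdc6, Pole2 and Pola1. The word CCAAT was present in 20 of the 33 (60.6%) against 41.1% of all genes, and TTTGAA, the core of the element linked to mitotic genes, in 7 (21.2%) against 20.2%. A match of letters is a description and was not tested as a binding site. Stretches of 120 bases of 4 genes are shown because they hold E2F words upstream of the start site and lie outside annotated exons of GENCODE M21.

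The stretches run 5′ to 3′ on the strand of the gene, with the E2F words in capitals. They lie at chr1:128359716-128359835 (minus strand) for Mcm6, chr8:75109336-75109455 (plus strand) for Mcm5, chr11:98907993-98908112 (plus strand) for Cdc6 and chrX:93632194-93632313 (minus strand) for Pola1. The Cdc6 stretch lies in an intron of the GENCODE gene model, which starts farther upstream than the RefSeq one.
Mcm6: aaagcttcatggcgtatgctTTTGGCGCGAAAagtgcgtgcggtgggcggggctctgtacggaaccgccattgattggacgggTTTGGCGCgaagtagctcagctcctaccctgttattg
Mcm5: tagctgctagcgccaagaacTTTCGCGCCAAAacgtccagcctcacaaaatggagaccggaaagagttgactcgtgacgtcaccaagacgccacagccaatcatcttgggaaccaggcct
Cdc6: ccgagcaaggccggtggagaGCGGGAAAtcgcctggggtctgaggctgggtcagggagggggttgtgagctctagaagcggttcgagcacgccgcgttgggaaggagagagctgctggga
Pola1: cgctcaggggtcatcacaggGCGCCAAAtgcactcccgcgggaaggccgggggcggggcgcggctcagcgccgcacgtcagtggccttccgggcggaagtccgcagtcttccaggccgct
Mcm6 held 3 E2F words in its stretch and Mcm5 held 2, while Cdc6 and Pola1 held 1 each. In Mcm6 and in Mcm5 a pair of words on opposite strands overlaps, which makes the longer run of capitals.

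The libraries held between 14363064 (HM_DFX) and 21883855 (LM_DFX) fragments, worked out from the FPKM steps. Of 9 mammary epithelial markers, 7 had an FPKM of at least 1 in every library. The summed FPKM of the 9 was 1697 in HM_Ctrl and 582 in HM_DFX, with 2221 in LM_Ctrl and 1103 in LM_DFX, and Krt5 was at 0. Krt8 and Krt18 were the largest parts of this sum, at 593 and 773 in HM_Ctrl. With DFX all 7 were lower in 4T1-HM (all genes 55.9%) and 6 in 4T1-LM (all genes 52.6%). In 4T1-LM, Krt19 was higher with DFX, at 46.4 in LM_Ctrl and 103 in LM_DFX. Krt14 differed between the clones, at 2.48 in HM_Ctrl and 54.3 in LM_Ctrl. Among the markers of other cell types, only Pdgfra (2.77 to 5.50) and Cd68 (12.3 to 83.1) exceeded an FPKM of 1 in any library, while Ptprc stayed between 0 and 0.0139 and Pecam1 between 0.00959 and 0.123. Cd68 was at 12.9 in HM_Ctrl and 37.4 in HM_DFX, with 12.3 in LM_Ctrl and 83.1 in LM_DFX. The part of these markers in the results below was not tested.

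Summed over the 42 genes, the FPKM was 1037 in HM_Ctrl and 1084 in HM_DFX, with 1380 in LM_Ctrl and 1256 in LM_DFX. LM_Ctrl was the highest of the 4 libraries for 25 genes. HM_Ctrl was the lowest for 17 and HM_DFX for 15, and the shares over all genes were not worked out. In bulk RNA, fewer cells in S phase and less RNA per cell cannot be told apart. Pcna, the sliding clamp, was the most abundant member in every library, followed by Mcm3, and Dna2 was the least abundant. Pcna exceeded Dna2 46.9 times in HM_Ctrl and 329 times in HM_DFX, with 41.3 times in LM_Ctrl and 291 times in LM_DFX.

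**Figure D1:**
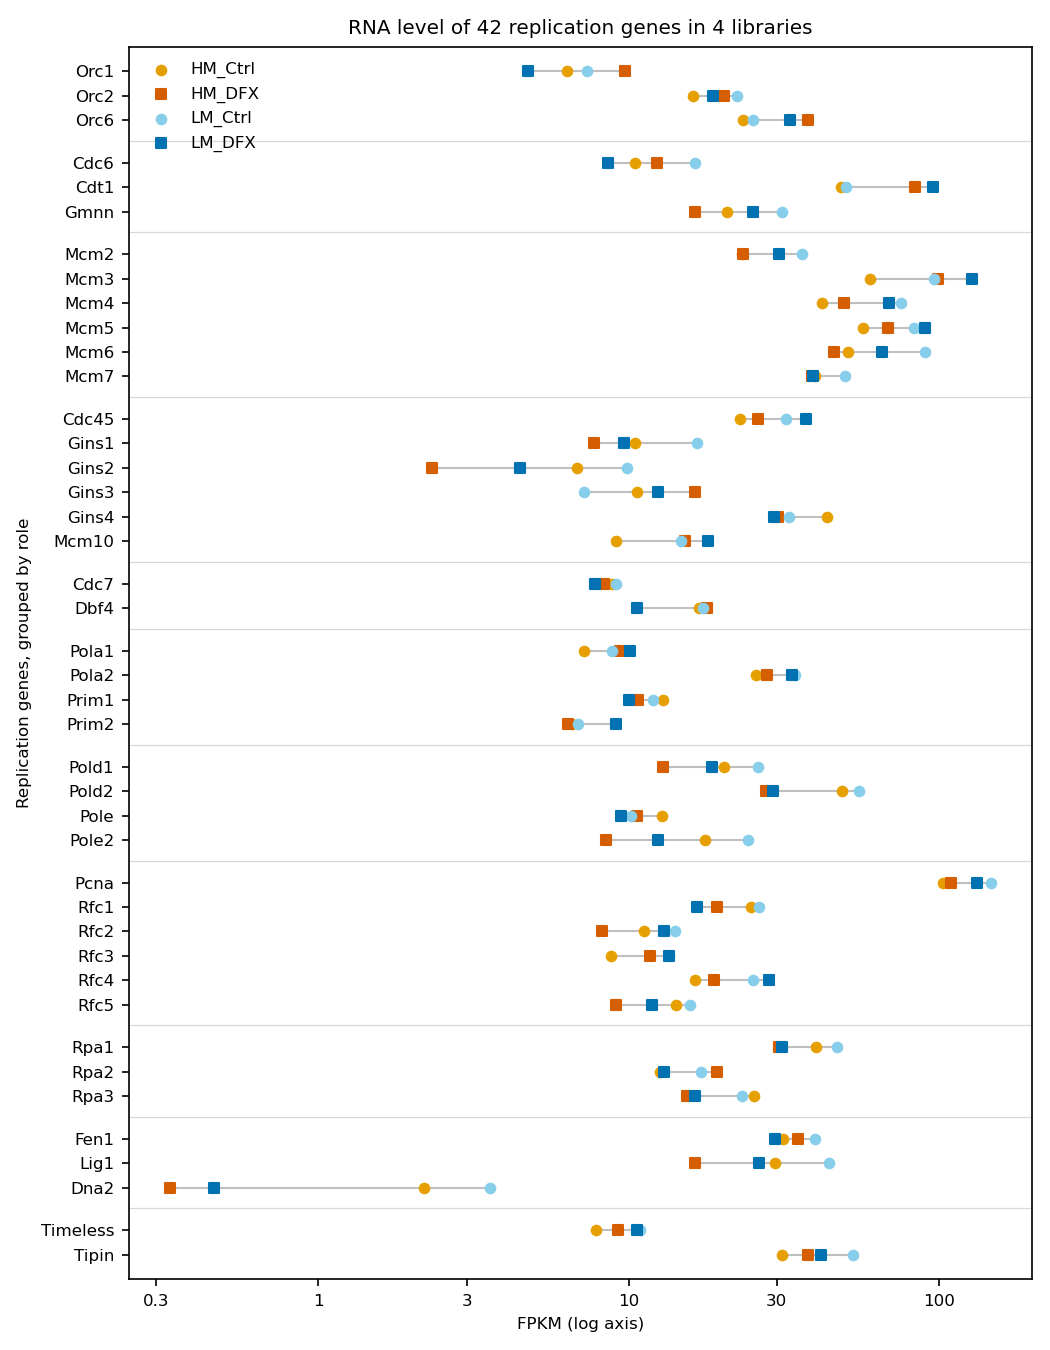
FPKM (log axis) of the 42 replication genes, grouped by role from ORC at the top to fork protection at the bottom; circles are control and squares DFX libraries, 1 library each, in orange for 4T1-HM and blue for 4T1-LM. Pcna lies farthest right at 103 to 147, and Dna2 drops below 1 in both DFX libraries.

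With DFX, the replication genes did not move in one direction. Differences are given below as log2 fold changes of FPKM + 1, which understate changes of low genes, and a gene was called when it differed at least 2-fold. In 4T1-HM, the median of the 42 genes was 0.05, beside -0.10 over all genes tested, with 20 genes below 0 against 55.9% of all genes. Gins2 and Dna2 were called lower, which is 2 of 42 against 12.4% of all genes, and 0 were called higher against 6.93%. At 1.5-fold, 8 were lower (all genes 26.0%) and 4 higher (all genes 16.0%).

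In 4T1-LM the median was -0.24, beside -0.04 over all genes, and 32 of the 42 genes were below 0 against 52.6% of all genes. Dna2 was the only member called lower (all genes 8.72%), and 0 were called higher (all genes 7.09%). At 1.5-fold, 9 were lower (all genes 20.0%) and 2 higher (all genes 16.5%). The shares of members called at 2-fold were thus under the background in both clones.

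Counting error alone was small for most members. The exact 95% counting interval of the FPKM ratio lay below 1 for 17 and above 1 for 19 of the 42 genes in 4T1-HM, against 43.3% and 32.3% of the genes with recovered fragments. In 4T1-LM it lay below 1 for 29 and above 1 for 10, against 40.4% and 34.9%. These intervals cover counting error only and not the variation between cultures. Scaling the libraries by the median ratio moved the median of all genes in 4T1-HM from -0.10 to 0.01, and that of the members to 0.18.

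Genes that finish strands were among the lowest with DFX. Dna2 (chr10:62947026-62974185 of mm10, plus strand), a nuclease and helicase that trims long Okazaki flaps, stood at 2.19 FPKM in HM_Ctrl and 0.332 in HM_DFX, with 3.56 in LM_Ctrl and 0.459 in LM_DFX. It was low in both DFX libraries, at an FPKM ratio of 0.151 (95% interval 0.0981 to 0.225) in 4T1-HM and 0.129 (0.0960 to 0.171) in 4T1-LM. Lig1, the ligase that seals Okazaki fragments, was at 29.7 and 16.3 FPKM in HM_Ctrl and HM_DFX and at 44.2 and 26.3 in LM_Ctrl and LM_DFX. Its log2 fold change was -0.83 in 4T1-HM and -0.73 in 4T1-LM, short of the 2-fold call. Fen1, the flap nuclease of the same step, differed from both, with 31.5 and 35.2 FPKM in the HM libraries and 39.9 and 29.5 in the LM libraries. Its log2 fold change was 0.15 with DFX in 4T1-HM and -0.43 in 4T1-LM. Of the exon bases of Fen1, 84.2% lie under the antisense gene Gm10143, which itself had an FPKM of 0.535 to 0.992, and the strand setting of the count is not given in the sources used here.

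The 4 subunits of polymerases delta and epsilon among the members were below 0 in both clones (42.4% of all genes were), with a median of -0.71 in 4T1-HM and -0.68 in 4T1-LM. The smaller subunits, outside the members, did not share this. Pold3 was at 0.49 in 4T1-HM and 0.20 in 4T1-LM, Pole3 at 0.61 and 0.41, Pole4 at 1.22 and 0.83, and Pold4 at -0.31 and 1.06. None of the 4 member subunits was called at 2-fold on the FPKM + 1 scale. Pole2, the accessory subunit of polymerase epsilon, was at 17.6 FPKM in HM_Ctrl and 8.46 in HM_DFX, with 24.2 in LM_Ctrl and 12.4 in LM_DFX. The log2 fold change of Pole2 was -0.98 in 4T1-HM and -0.91 in 4T1-LM, its plain FPKM ratio in 4T1-HM was 0.480 (95% interval 0.406 to 0.566), and 11.0% of its 31-base words also occur in another annotated gene. Pold2, the accessory subunit of polymerase delta, was at 48.8 and 27.7 FPKM in the HM libraries and 55.1 and 29.2 in the LM libraries. The catalytic subunits differed less. Pold1 went from 20.3 to 12.9 FPKM with DFX in 4T1-HM and from 26.1 to 18.5 in 4T1-LM. Pole was at 12.8 and 10.6 FPKM in the HM libraries and at 10.2 and 9.47 in the LM libraries, with log2 fold changes of -0.25 and -0.10.

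Polymerase alpha-primase, which starts each strand, stayed near 0, with a median of 0.03 in 4T1-HM and 0.07 in 4T1-LM. Pola1, the catalytic subunit, was at 7.17 and 9.36 FPKM in the HM libraries and at 8.84 and 10.1 in the LM libraries, higher with DFX in both. Pola2, its partner subunit, had log2 fold changes of 0.11 and -0.03, the second of which turned to 0.02 with median-ratio scaling. Prim1, which synthesises the RNA primer, was at -0.25 and -0.24. Prim2, the large primase subunit, was the single member below 0 in 4T1-HM and above 0 in 4T1-LM, at -0.04 (0.08 with median-ratio scaling) and 0.36. Pold1, Pole, Prim2 and Dna2 encode subunits whose proteins carry an iron-sulfur cluster, and the median over these 4 RNAs was -0.43 in 4T1-HM and -0.29 in 4T1-LM.

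Among the members, Cdt1 had the highest log2 fold change with DFX in each clone, while its partners in licensing differed among themselves. Cdt1 (chr8:122568015-122573554), the loader of MCM2-7, was at 48.4 FPKM in HM_Ctrl and 83.9 in HM_DFX, with 50.2 in LM_Ctrl and 95.7 in LM_DFX. Both DFX libraries lay above both control libraries, with log2 fold changes of 0.78 and 0.92. Gmnn, its inhibitor, was at 20.7 and 16.3 FPKM in the HM libraries and at 31.1 and 25.2 in the LM libraries, lower with DFX in both. The FPKM ratio of Cdt1 to Gmnn was 2.34 in HM_Ctrl and 5.15 in HM_DFX, with 1.62 in LM_Ctrl and 3.79 in LM_DFX. The ratio was thus higher in both DFX libraries than in either control library.

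The members hold the ORC subunits Orc1, Orc2 and Orc6. The other subunits, outside the members, were at -0.18 in 4T1-HM and 0.12 in 4T1-LM (Orc3), 0.20 and 0.06 (Orc4) and -0.54 and 0.46 (Orc5). Orc6 was at 23.4 and 37.8 FPKM in the HM libraries and at 25.1 and 33.0 in the LM libraries, with log2 fold changes of 0.67 and 0.38. Orc1 (chr4:108579423-108614833), the largest subunit and an ATPase, was at 6.32 FPKM in HM_Ctrl and 9.69 in HM_DFX, with 7.33 in LM_Ctrl and 4.74 in LM_DFX. It was highest with DFX in 4T1-HM and lowest with DFX in 4T1-LM. Orc2 was at 16.1 and 20.2 FPKM in the HM libraries and at 22.3 and 18.7 in the LM libraries. Of the exon bases of Orc2, 29.8% lie under the antisense gene Nif3l1, which had log2 fold changes of -0.24 and -0.82, and for Orc1 the share under Gm12743 is 10.8%. Cdc6 (chr11:98907801-98923940), the ATPase that joins ORC to load MCM2-7, was at 10.5 and 12.3 FPKM in the HM libraries and at 16.4 and 8.60 in the LM libraries.

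The 6 genes of the MCM2-7 ring had a median of 0.12 with DFX in 4T1-HM and -0.18 in 4T1-LM, and their members spread. Mcm3 was at 59.8 FPKM in HM_Ctrl and 99.3 in HM_DFX, with 96.0 in LM_Ctrl and 128 in LM_DFX, higher with DFX in both clones at 0.72 and 0.41. Mcm5 was at 56.8 and 68.7 FPKM in the HM libraries and at 83.2 and 89.9 in the LM libraries. Mcm6 differed the other way, at 50.9 and 45.7 FPKM in the HM libraries and at 90.0 and 65.3 in the LM libraries. Mcm2 had log2 fold changes of 0.01 and -0.24, and Mcm4 of 0.23 and -0.12. Mcm7 was at -0.02 (0.12 with median-ratio scaling) and -0.33, and 33.4% of its 31-base words also occur in another annotated gene. The FPKM ratio of Mcm3 to Mcm7, whose proteins are present in equal number in the ring, was 1.51 in HM_Ctrl and 2.54 in HM_DFX, with 1.94 in LM_Ctrl and 3.26 in LM_DFX.

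Helicase activation genes spread widely, from -1.23 to 0.68 in 4T1-HM and from -0.99 to 0.72 in 4T1-LM. Gins2 (chr8:120578633-120589304), a subunit of the GINS tetramer, was at 6.79 FPKM in HM_Ctrl and 2.33 in HM_DFX, with 9.84 in LM_Ctrl and 4.45 in LM_DFX, with log2 fold changes of -1.23 and -0.99. Of its exon bases, 67.3% lie under the antisense gene Gse1, which differed the other way, at 4.77 and 10.4 FPKM in the HM libraries and 4.91 and 11.0 in the LM libraries. Its part in the Gins2 value was not tested. Gins3, in the same tetramer, was at 10.6 and 16.3 FPKM in the HM libraries and at 7.16 and 12.4 in the LM libraries, at 0.58 and 0.72. Gins1 was lower with DFX in both clones, at -0.40 and -0.73, and Gins4 at -0.50 and -0.17. The 4 tetramer subunits thus did not share a direction. Mcm10, which helps to activate the helicase, was at 9.13 and 15.2 FPKM in the HM libraries and at 14.7 and 18.0 in the LM libraries. Cdc45, the helicase cofactor, was at 0.18 and 0.21.

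The CDC7-DBF4 kinase, which fires licensed origins, differed between its subunits. Cdc7, the catalytic subunit, was at 8.84 and 8.31 FPKM in the HM libraries and at 9.12 and 7.81 in the LM libraries, and its log2 fold change in 4T1-HM turned from -0.08 to 0.05 with median-ratio scaling. Dbf4, the regulatory subunit, was at 16.9 FPKM in HM_Ctrl and 17.9 in HM_DFX, with 17.4 in LM_Ctrl and 10.6 in LM_DFX. The LM_DFX library was the low one of the 4, with a log2 fold change of -0.67.

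Pcna was at 103 FPKM in HM_Ctrl and 109 in HM_DFX, with 147 in LM_Ctrl and 133 in LM_DFX, and 23.3% of its 31-base words also occur in another gene, chiefly Pcna-ps2, which had an FPKM of 1.52 to 2.53. The clamp loader subunits, which open the PCNA ring, ran from -0.59 (Rfc5) to 0.38 (Rfc3) in 4T1-HM and from -0.63 (Rfc1) to 0.17 (Rfc4) in 4T1-LM. Rfc1, the large subunit, was lower with DFX in both clones, at 24.7 and 19.3 FPKM in the HM libraries and 26.2 and 16.6 in the LM libraries. Rfc2 was at -0.41 and -0.11. Shares of 31-base words found in other genes were 19.4% for Rfc2, 19.3% for Rfc5 and 10.5% for Rfc4.

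The 3 subunits of RPA, which coats single-stranded DNA, split in 4T1-HM. Rpa1, the large subunit, was at 40.1 and 30.6 FPKM in the HM libraries and at 46.8 and 31.2 in the LM libraries. Rpa3 was at 25.3 and 15.4 in the HM libraries and at 23.2 and 16.4 in the LM libraries, with 13.4% of its 31-base words shared. Rpa2 was at 12.6 FPKM in HM_Ctrl and 19.2 in HM_DFX, with 17.1 in LM_Ctrl and 13.0 in LM_DFX, higher with DFX in 4T1-HM and lower in 4T1-LM. Among the fork protection genes, which keep helicase and polymerase coupled, Timeless was at 0.21 and -0.04 (0.01 with median-ratio scaling). Tipin was at 31.1 and 37.8 FPKM in the HM libraries and at 52.7 and 41.5 in the LM libraries.

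Setting the DFX responses of the clones side by side, 19 of the 42 genes (45.2%) were below 0 in both, near the 42.4% of all genes, and Mcm7 and Cdc7 among them turned in 4T1-HM with median-ratio scaling. Above 0 in both were 9 (21.4%, all genes 33.5%), namely Orc6, Cdt1, Mcm3, Mcm5, Cdc45, Gins3, Mcm10, Pola1 and Rfc4. Another 13 genes were above 0 in 4T1-HM and below 0 in 4T1-LM, against 9.84% of all genes, and Prim2 alone was the reverse. Among the 13, the LM values of Pola2, Rfc3 and Timeless were within 0.04 of 0 and turned with median-ratio scaling. The response of 4T1-HM minus that of 4T1-LM had a median of 0.18, beside -0.08 over all genes. It was positive for 27 of the 42 genes, against 43.5% of all genes. Orc1 (1.08) and Cdc6 (1.07) differed by at least 2-fold in the HM direction (all genes 3.52%), and 0 members did so in the LM direction (all genes 5.38%). Rpa2 (0.94) and Dbf4 (0.74) followed. All 6 MCM2-7 genes had a positive difference, of 0.16 to 0.35. Each response rests on its own control library, and with 1 library per condition the difference of responses could not be tested. The same control libraries make up HM_Ctrl against LM_Ctrl below, so that comparison and the difference of responses are not independent.

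**Figure D2:**
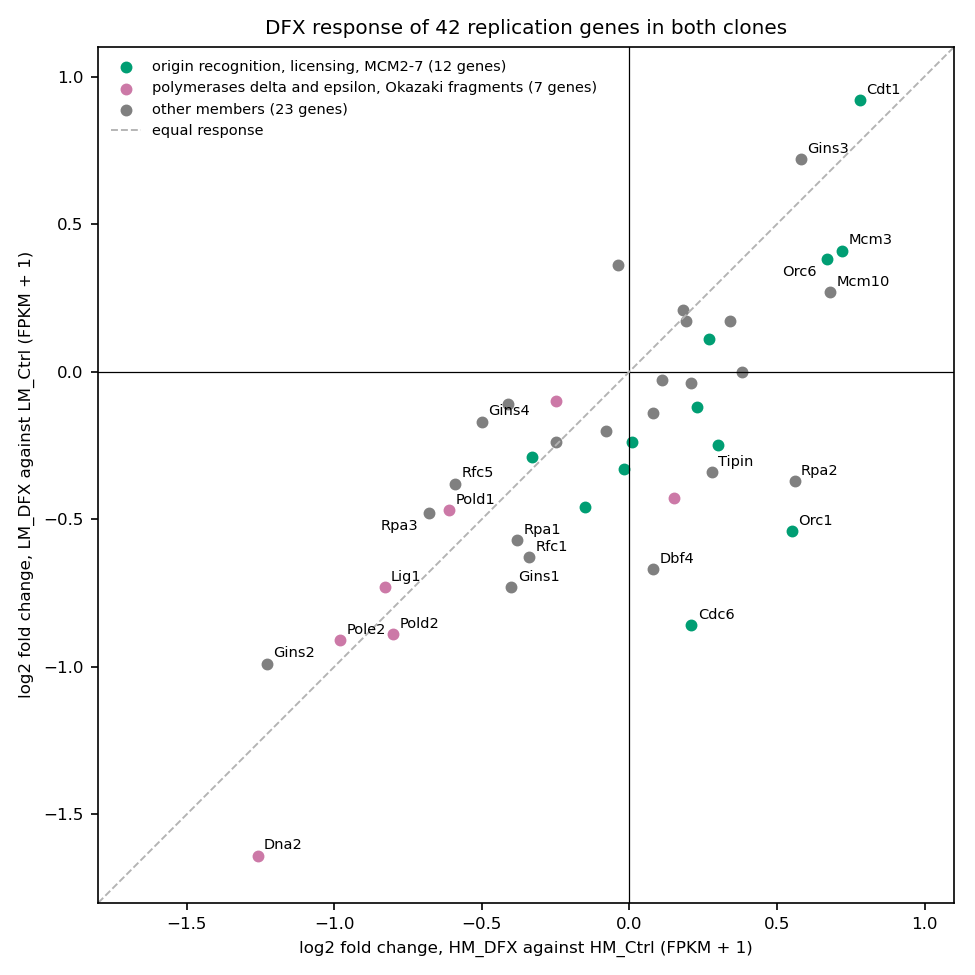
Log2 fold change of FPKM + 1 with DFX in 4T1-HM (horizontal) and 4T1-LM (vertical), 1 point per replication gene; green marks origin recognition, licensing and MCM2-7, pink polymerases delta and epsilon and Okazaki fragment genes. Dna2 and Gins2 lie lowest in both clones, Cdt1 highest, and Orc1, Cdc6, Rpa2 and Dbf4 lie far below the dashed line of equal response.

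Without DFX, the replication genes were lower in 4T1-HM than in 4T1-LM, by a modest amount and across nearly every role. The median log2 fold change of HM_Ctrl against LM_Ctrl was -0.40, beside 0.01 over all genes, and 37 of the 42 genes were below 0 against 48.2% of all genes. With TPM scaling 34 were below 0, as Cdt1, Cdc7 and Dbf4, all within 0.05 of 0, turned. No member passed 2-fold in either direction (0 lower against 3.15% and 0 higher against 3.65% of all genes). At 1.5-fold, 9 were lower (all genes 8.70%) and 0 higher (all genes 10.5%). The counting interval lay below 1 for 32 and above 1 for 3 genes, against 29.4% and 33.2% of all genes with recovered fragments.

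The MCM2-7 ring showed the lowest median of the roles, at -0.65, with 6 of 6 genes lower in HM_Ctrl. Mcm4, at 75.4 FPKM in LM_Ctrl, had a ratio of 0.557 (95% interval 0.530 to 0.585). Mcm6 had a ratio of 0.565 (0.543 to 0.588), Mcm3 of 0.623 (0.597 to 0.649), Mcm2 of 0.637 (0.607 to 0.669) and Mcm5 of 0.682 (0.654 to 0.711). Mcm7 was the closest to parity of the ring, at 0.800 (0.761 to 0.840). The fork protection gene Tipin was at -0.74, Mcm10 at -0.63 and Gins1 at -0.62. Cdc6 was at -0.60, Gmnn at -0.56, Lig1 at -0.56 and Pcna at -0.51.

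The exceptions were few. Gins3 was at 10.6 FPKM in HM_Ctrl and 7.16 in LM_Ctrl, a ratio of 1.48 (1.28 to 1.72). Gins4 was at 43.5 and 32.9 (ratio 1.32, 1.20 to 1.46) and Pole at 12.8 and 10.2 (ratio 1.25, 1.18 to 1.33). Prim1 and Rpa3 were also above 0, at 0.09 and 0.12, with counting intervals that held 1. The GINS tetramer therefore included both directions, with Gins1 and Gins2 lower and Gins3 and Gins4 higher in HM_Ctrl.

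With DFX in both clones, HM_DFX against LM_DFX, the median was -0.18 beside -0.05 over all genes. No member passed 2-fold on the FPKM + 1 scale (0 lower against 5.05% and 0 higher against 3.31% of all genes). At 1.5-fold, 4 were lower (all genes 14.6%) and 2 higher (all genes 9.95%). Orc1 was higher in HM_DFX at 0.90 and Dbf4 at 0.70, and Gins2 was lower at -0.71 and Lig1 at -0.66. MCM2-7 kept a median of -0.38, with Mcm7 at -0.01, which turned to 0.07 with median-ratio scaling.

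**Figure D3:**
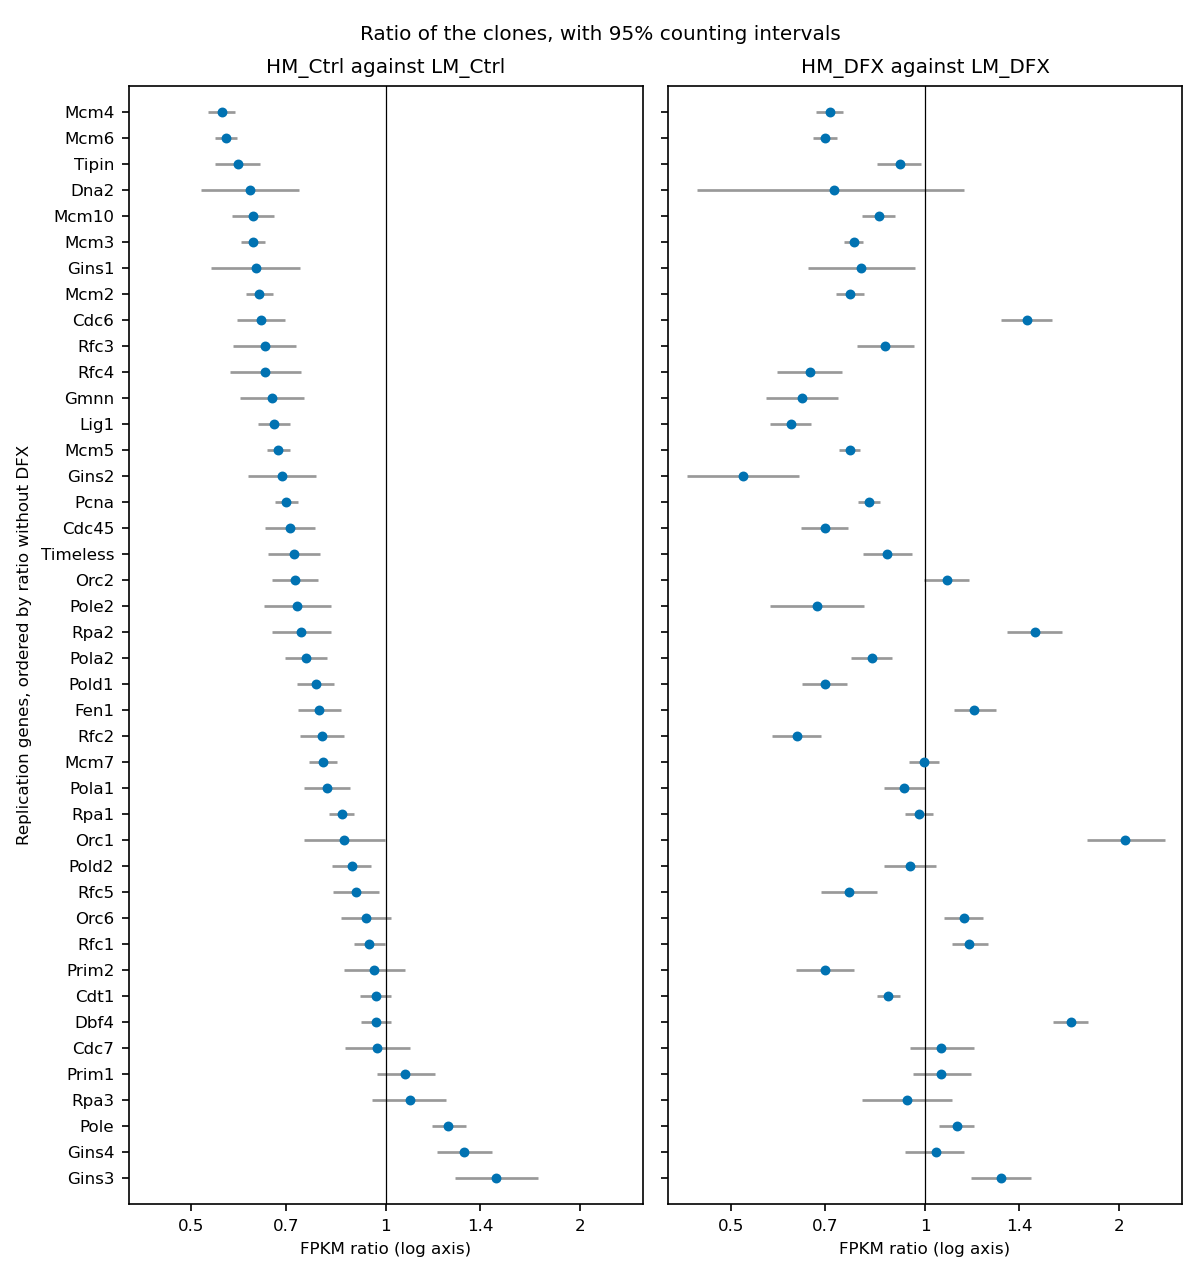
FPKM ratio (log axis) of 4T1-HM to 4T1-LM for each replication gene without DFX (left) and with DFX (right), 1 library per condition; bars are exact 95% counting intervals and genes are ordered by the ratio without DFX. On the left, 32 genes have intervals wholly below 1, led by Mcm4 and Mcm6, and on the right Orc1, Dbf4, Rpa2 and Cdc6 stand above 1.

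Other genes of the pathway lay close to 0 as a group. Of 33 further replication genes 32 were found in the table, and their median with DFX was 0.03 in 4T1-HM and -0.06 in 4T1-LM. In 4T1-HM 2 were called lower (all genes 12.4%) and 1 higher (6.93%), and in 4T1-LM 3 lower (8.72%) and 1 higher (7.09%). Chtf18, a subunit of an alternative clamp loader, was at 11.4 and 2.19 FPKM in the HM libraries and 10.5 and 4.41 in the LM libraries. Rnaseh2c, a subunit of the nuclease that removes ribonucleotides from DNA, was at 24.7 and 5.69 in the HM libraries and 26.8 and 9.92 in the LM libraries. Pole4, given above, was the 1 called higher in 4T1-HM. Asf1b, a histone chaperone at the fork, was at -0.89 and -0.87. Between the control libraries, 25 of these 32 genes were below 0 (all genes 48.2%), with a median of -0.22.

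Deoxynucleotide supply, the step that uses iron directly, had a median of -0.63 over 11 genes with DFX in 4T1-HM and -0.52 in 4T1-LM, with 2 called lower in each (all genes 12.4% and 8.72%). Rrm2, the iron-bearing subunit of ribonucleotide reductase, was at 88.4 FPKM in HM_Ctrl and 30.3 in HM_DFX, with 119 in LM_Ctrl and 22.6 in LM_DFX. Tk1, thymidine kinase, was at 28.9 and 3.71 in the HM libraries and 41.4 and 11.3 in the LM libraries. Rrm2 and Tk1 were the genes called lower, in both clones alike. Between the control libraries 10 of the 11 genes were below 0, with a median of -0.32, close to the -0.40 of the replication genes.

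The mitosis genes differed with DFX far more than the replication genes. All 30 were below 0 in both clones, with medians of -1.10 in 4T1-HM and -0.85 in 4T1-LM, and 18 and 13 of them were called lower (all genes 12.4% and 8.72%). Plk1, a mitotic kinase, was at 56.0 and 6.40 FPKM in the HM libraries and 78.1 and 9.75 in the LM libraries, and Ccnb2, a mitotic cyclin, at 72.3 and 8.96 and at 102 and 16.1. The summed FPKM of the mitosis genes was 1206 in HM_Ctrl and 516 in HM_DFX, with 1401 in LM_Ctrl and 663 in LM_DFX, whereas that of the replication genes differed far less. Between the control libraries the mitosis genes had a median of -0.16, closer to 0 than the replication genes. Whether cell cycle position moved with these values was not tested.

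The E2F and Rb genes, the upstream regulators, had a median of -0.06 over 18 genes in 4T1-HM and -0.37 in 4T1-LM, with 2 called lower (all genes 12.4% and 8.72%) and 1 higher (6.93% and 7.09%) in each clone. E2f8, a repressor of the family, was at 28.8 and 10.5 FPKM in the HM libraries and 28.8 and 10.9 in the LM libraries. Rbl2, an Rb-family pocket protein, was at 6.52 and 2.00 in the HM libraries and 3.66 and 3.14 in the LM libraries. The 13 replication genes with an E2F word had a median of 0.27 with DFX in 4T1-HM and -0.33 in 4T1-LM, and the 20 without one 0.08 and -0.24. Between the control libraries these medians were -0.43 and -0.36.

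**Figure D4:**
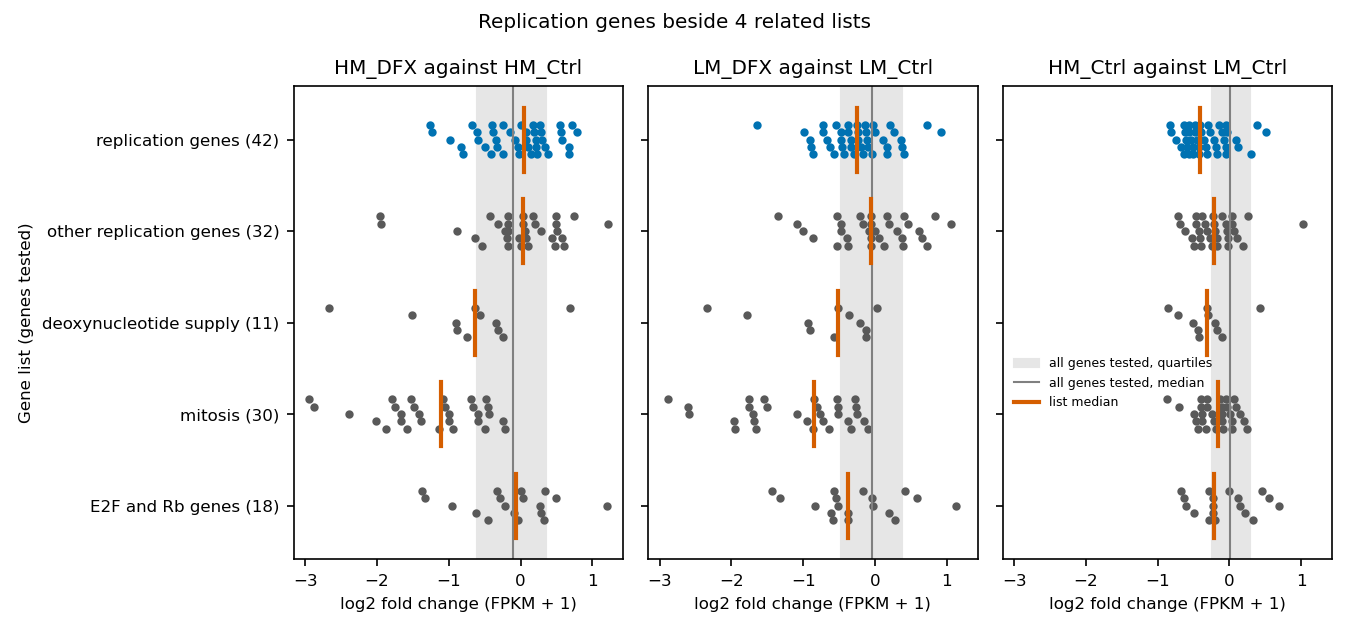
Log2 fold change of FPKM + 1 for the 42 replication genes (blue) and 4 related lists (grey), 1 point per gene, in 3 comparisons of 1 library each; orange bars are list medians, the grey band and line the quartiles and median of all genes tested. With DFX the mitosis genes lie at medians of -1.10 and -0.85 while the replication genes lie at 0.05 and -0.24, and between the control libraries the replication genes have the lowest median, at -0.40.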

How the data were processed

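Bulk RNA-seq of 4 libraries was analysed. Per the labels, poly(A) RNA was selected and directional libraries were read as paired ends. The submitters' processing notes name FastQC, Trimmomatic, HISAT2, featureCounts and mm10, and the study names Ensembl as the source of its mm10 reference. Versions, annotation release and strand setting are not given in the sources used here. The authors deposited FPKM per gene in 1 table, and no other unit was used. Fold changes are log2 ratios of FPKM + 1 over genes that reached an FPKM of 1 in any library, called at 2-fold. Fragments were recovered from FPKM with GENCODE M21 gene lengths (whole within 0.02 for 84.3% of 21067 genes and for all 42 members, 4 of them with a solved length), and gave exact Clopper-Pearson 95% intervals, which cover counting error only. Scripts used Python 3.11.15, numpy 2.4.6, pandas 2.3.3 and scipy 1.17.1 and were tested on simulated data. Genes named are all members, at most 4 further replication genes and 2 of each related list with the largest change in 4T1-HM, and markers above an FPKM of 1. Partner genes that overlap a member, the remaining ORC and polymerase subunits, and Ptprc, Pecam1 and Krt5, were named after their values were seen. Members and lists were chosen with earlier results of these data known. The symbols Pclaf (not found) and Itgam (not unique) were left out.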

Additional observations from a re-analysis of the deposited data

Results flagged for a closer look

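For 8 replication genes the DFX library lay above its control in 4T1-HM and below it in 4T1-LM, with counting intervals on opposite sides of 1. The difference of the log2 fold changes, HM minus LM, was 1.08 for Orc1, 0.55 for Orc2, 1.07 for Cdc6, 0.35 for Mcm4, 0.22 for Pcna, 0.94 for Rpa2, 0.58 for Fen1 and 0.62 for Tipin. With 1 library per condition these differences were not tested, and the share of all genes under this interval rule was not worked out. By sign alone, 13 of the 42 members were above 0 in 4T1-HM and below 0 in 4T1-LM, against 9.84% of all genes.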

How the results depend on the processing

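No paired analysis was possible because the labels give no replicate numbers, and leaving out a library was not possible with 1 per condition. A pseudocount of 0.1 and TPM scaling each gave 3 members lower with DFX in 4T1-HM in place of 2 (all genes 18.9% and 17.2%). Each also gave 2 lower in 4T1-LM in place of 1 (all genes 13.6% and 12.3%). In HM_DFX against LM_DFX each gave 1 member higher in place of 0 (all genes 6.39% and 5.90%). TPM values were larger than FPKM values and the same 1 was added to them. Both settings therefore lower the weight of the added value and are not independent checks. Median-ratio scaling gave a member median of 0.18 with DFX in 4T1-HM. A 1.5-fold threshold gave 8 lower and 4 higher with DFX in 4T1-HM (all genes 26.0% and 16.0%). In 4T1-LM it gave 9 lower and 2 higher (all genes 20.0% and 16.5%). It gave 9 lower in HM_Ctrl against LM_Ctrl (all genes 8.70%). In HM_DFX against LM_DFX it gave 4 lower and 2 higher (all genes 14.6% and 9.95%). On the FPKM + 1 scale, a 4-fold threshold gave 0 lower with DFX in 4T1-HM (all genes 1.31%) and 0 in 4T1-LM (all genes 1.06%). Without the added 1, the FPKM ratio of Dna2 was 0.151 in 4T1-HM and 0.129 in 4T1-LM, past 4-fold lower in both. Single members were compared with a pseudocount of 0.1, without the filter, with a filter on mean FPKM, and with each other scaling. Of these values, 969 stayed within their counting interval and 39 moved beyond it. A change of filter cannot alter the value of a single member, so that part of the 969 was fixed in advance. A change of scaling turned the sign of 12 differences of single members, all within 0.08 of 0 in the reported scaling. Members with few fragments, Dna2 first, carry the widest counting intervals. Differences between single libraries cannot be told apart from differences between cultures, and each metastatic capacity was represented by 1 clone of the 4T1 line.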
